A study of Mus musculus with 58 samples.

Results

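The genes described here are used as markers of T cells and cytotoxic lymphocytes in whole mouse liver: Cd3d, Cd3e, Cd3g, Cd8a, Cd4, Cd28, Nkg7, Gzma, Gzmb and Gzmk. They were taken by symbol, as the 10 of 24537 rows of the count table that carry these names, and they are described in all 6 groups without a filter on low counts. The study sequenced polyA RNA from 58 livers of male C57BL6/J mice. Each mouse had received an adeno-associated virus (AAV8) with a TBG promoter, which is active in hepatocytes, driving either Myc or the fluorescent protein mApple. Each mouse was also gavaged 2 times daily, with a break at weekends, for 30 days with ruxolitinib at 45 mg/kg or with vehicle. The groups were old Myc ruxolitinib (n = 14), old Myc vehicle (n = 11), old mApple ruxolitinib (n = 9), old mApple vehicle (n = 8), young Myc ruxolitinib (n = 10) and young mApple vehicle (n = 6). Young mice were 4 months old and were all sequenced in the second of 2 batches. Old mice were 25 months old in the first batch and 24 months old in the second, so age and batch cannot be told apart among them.

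The CD3 chains carry the signal of the T cell receptor into the cell, CD8 and CD4 are the co-receptors that divide cytotoxic from helper T cells, and CD28 delivers co-stimulation. Granzymes are proteases that cytotoxic T cells and natural killer cells release from granules into target cells, and NKG7 is a membrane protein of those granules. Interleukins that sustain these cells, such as IL-2 and IL-15, signal through the common gamma chain and the kinases JAK1 and JAK3, and ruxolitinib inhibits JAK1 and JAK2. In whole liver, fewer cells of a type and less RNA per cell cannot be told apart.

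The genes lie on 6 chromosomes of the mm10 build. Cd3g, Cd3d and Cd3e are neighbours on chromosome 9, at chr9:44969572-44980431, chr9:44981786-44987052 and chr9:44998743-45009590. The co-receptors are on chromosome 6, with Cd8a at chr6:71373427-71379171 and Cd4 at chr6:124864693-124888209. Cd28 is at chr1:60746388-60773359 and Nkg7 at chr7:43437138-43438246. Gzma (chr13:113093827-113100981) and Gzmk (chr13:113171874-113180897) share a stretch of chromosome 13, and Gzmb is at chr14:56258836-56262334. No other row of the table overlaps any of them.

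The RefSeq promoter table of GRCm38.p6 held 8 of the 10 genes (not Cd4 or Cd28), each with 250 bases before and 50 after the start site. Both strands were searched for TTCNNNGAA, the GAS element that STAT proteins bind, and for TGTGGT, the core that RUNX factors bind. A GAS match was present in 3 of the 8 windows (Cd3d, Nkg7, Gzmb) and in 8.298% of all 32851 promoters in the table. A RUNX match was present in 3 of the 8 (Nkg7, Gzma, Gzmb) and in 16.76% of all promoters. A match is a description of letters, not evidence of binding. The promoters of Gzmb, Nkg7 and Cd8a are shown because the results below turn on these genes. Matches are in capitals, and the sequence is on the gene's strand: chr14:56262285-56262584, minus strand, for Gzmb, chr7:43436888-43437187, plus strand, for Nkg7, and chr6:71373177-71373476, plus strand, for Cd8a.
Gzmb: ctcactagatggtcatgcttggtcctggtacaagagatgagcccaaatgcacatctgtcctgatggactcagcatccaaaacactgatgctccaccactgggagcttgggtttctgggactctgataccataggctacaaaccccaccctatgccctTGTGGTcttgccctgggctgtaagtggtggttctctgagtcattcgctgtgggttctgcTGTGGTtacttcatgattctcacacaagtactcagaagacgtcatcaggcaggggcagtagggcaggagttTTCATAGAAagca
Nkg7: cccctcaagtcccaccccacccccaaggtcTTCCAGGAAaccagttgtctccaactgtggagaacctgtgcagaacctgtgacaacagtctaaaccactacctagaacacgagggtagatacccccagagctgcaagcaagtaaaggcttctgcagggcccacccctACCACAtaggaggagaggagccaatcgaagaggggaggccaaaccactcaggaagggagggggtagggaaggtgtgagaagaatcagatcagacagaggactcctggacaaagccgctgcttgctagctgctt
Cd8a: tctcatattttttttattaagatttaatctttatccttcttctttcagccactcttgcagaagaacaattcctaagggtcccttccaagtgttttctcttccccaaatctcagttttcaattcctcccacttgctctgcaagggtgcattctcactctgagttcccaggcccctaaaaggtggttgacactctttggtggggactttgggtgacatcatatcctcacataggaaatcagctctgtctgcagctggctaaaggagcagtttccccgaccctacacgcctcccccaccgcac
Counted from the start site at 1, Gzmb held RUNX matches that begin at -93 and -34 and a GAS match that begins at 38. Nkg7 held a GAS match from -220 and a RUNX match from -83, and Cd8a held neither.

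These genes were counted thinly. The libraries held between 10.68 M and 40.98 M exon counts (median 14.59 M), yet the counts of a member over all 58 libraries summed to between 371 for Gzmk and 2335.5 for Cd4. Gzmk was at 0 in 20 libraries, Gzma in 7, Cd3d and Gzmb in 4 each, Cd28 in 2, and Cd3e, Cd3g and Nkg7 in 1 each. Levels below are CPM, a gene's count relative to the library's total after TMM scaling, and most values below rest on few reads. On the CPM per kilobase scale, which allows genes to be set against each other, Nkg7 ranked first in all 4 old groups, at 2.11 ± 2.97 in old Myc ruxolitinib and 2.02 ± 1.53 in old Myc vehicle livers (SD, n = 14 and n = 11). Cd4 ranked first in both young groups, at 0.394 ± 0.13 in young Myc ruxolitinib and 0.895 ± 0.348 in young mApple vehicle livers (SD, n = 10 and n = 6). The next gene was Cd3e in both old Myc groups, at 1.36 ± 2.17 and 1.42 ± 1.32, within the spread of Nkg7. In young Myc ruxolitinib livers it was Cd3g, at 0.337 ± 0.201, within the spread of Cd4.

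Some libraries stand apart. Among the old ruxolitinib livers of the first batch, libraries 860 and 861 (Myc) had Ptprc, the pan-leukocyte gene, at 118 and 99.1 CPM, against a highest value of 34.2 CPM in the 38 old livers other than 860, 861, 864 and 865. Their Kupffer cell gene Clec4f was at 569 and 304 CPM, against at most 187.9 CPM in those 38. Library 864 (mApple) had the neutrophil gene S100a8 at 209 CPM and the hepatocyte gene Alb at 30012 CPM, the lowest of the old livers. Library 865 had the highest Cd8a of its group, 5.88 CPM. Myc itself was at 24.4 to 111 CPM in old Myc ruxolitinib and 36.1 to 61.5 CPM in young Myc ruxolitinib livers, against 4.24 to 22.4 CPM in young mApple vehicle livers. It was at 2.35 to 19.2 CPM in old mApple ruxolitinib livers. The library labelled old Myc vehicle 870 was at 6.88 CPM, while the other old Myc vehicle libraries were at 25.7 CPM or more. The library labelled old mApple vehicle 855 was at 56.9 CPM, the highest of its group, whose lowest was 2.97 CPM. Whether these labels were exchanged was not tested. Leaving out either library changed no call of a member, and leaving out both is given with the effect of Myc.

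**Figure D1:**
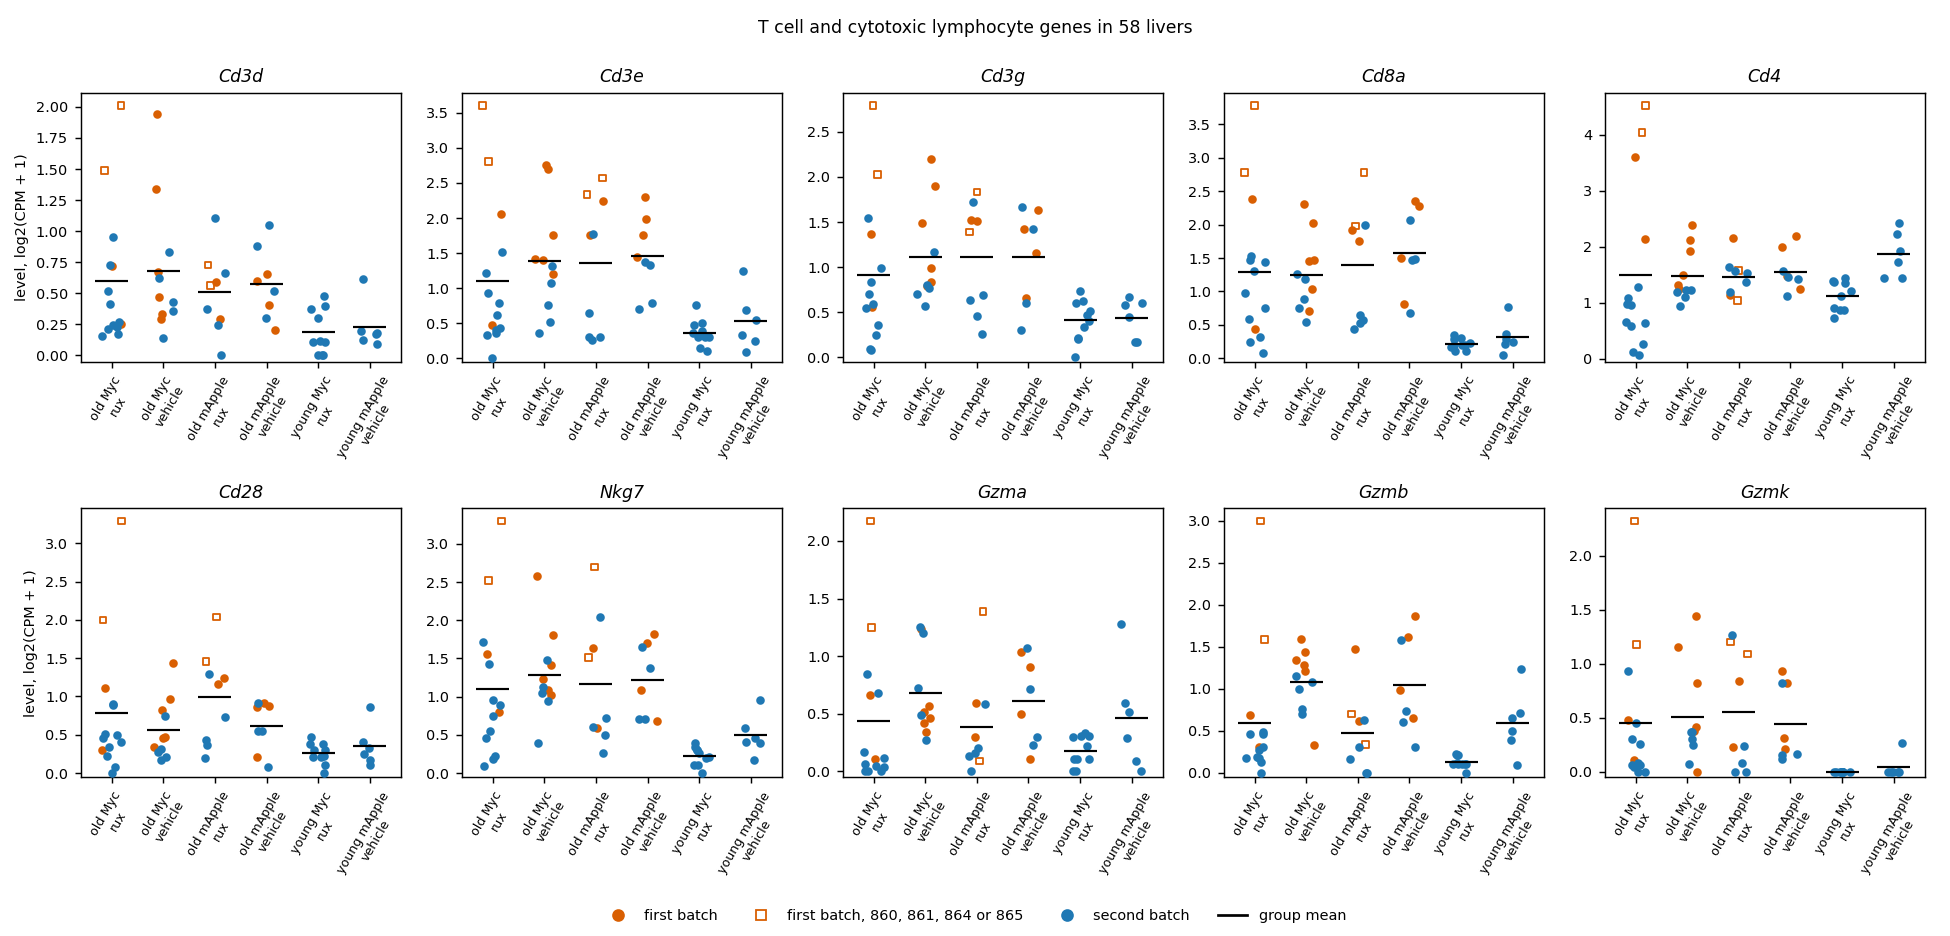
Level of each gene in every liver, as log2(CPM + 1), by group. Points are livers coloured by sequencing batch, open squares are libraries 860, 861, 864 and 865, and bars are group means. Cd8a is at 0.271 CPM or less in all 10 young Myc ruxolitinib livers, and Gzmk is at 0 in all of them.

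The first question is how these genes differ between old and young livers. Among livers with Myc and ruxolitinib in the second batch, Cd8a, Nkg7 and Gzmk rose with age and none fell, so 3 of the 10 members were called by edgeR at an adjusted p of 0.05, against 13.2% of all 18898 genes fitted that were called higher and 9.95% called lower. Cd8a was at 0.0568 CPM at the lowest, 0.829 CPM at the median and 1.89 CPM at the highest in old livers, against 0.0777, 0.154 and 0.271 CPM in young livers. In this comparison 7 of the 10 old livers lay above every young liver, although the ranges overlap. The log2 fold change of Cd8a was 2.41 ± 0.50 (SE, adjusted p = 0.00134, edgeR).

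Nkg7 had a lowest, median and highest level of 0.0628, 0.568 and 2.27 CPM in old Myc ruxolitinib livers, against 0, 0.179 and 0.316 CPM in young Myc ruxolitinib livers. Again 7 of 10 old livers lay above every young one, and the log2 fold change was 2.18 ± 0.57 (adjusted p = 0.00736, edgeR). Gzmk, a granzyme found in memory T cells, had no count in any of the 10 young livers, while 8 of the 10 old livers had at least 1. After TMM scaling, library sizes summed to 243 M in these old livers and 127 M in the young ones, so detection was not on equal depth. Summed over libraries, Gzmk was at 0.216 CPM in the old livers. That is 9.17-fold the level that 3 counts over the young group would give, a ratio that was not itself tested. The test of old against young livers gave an adjusted p of 0.0325 (edgeR). Library 1156 held 34.5 of the 52.5 counts, and without it the ratio was 3.73-fold. The 3 calls held whichever of the 20 libraries was left out. With a low-count filter (minimum count of 10), none of Cd8a, Nkg7 and Gzmk stayed in the fit, so these calls exist only without it.

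The other members differed less. Gzmb was at 1.17 ± 0.45 on the log2 scale (adjusted p = 0.0659), Cd3e at 1.14 ± 0.48 (adjusted p = 0.0895) and Cd3d at 1.18 ± 0.54 (adjusted p = 0.121, all edgeR). Cd4 was on the other side, with 0.0527, 0.576 and 1.44 CPM (lowest, median, highest) in old livers and 0.651, 1.24 and 1.73 CPM in young livers. In Cd4, 6 of the 10 old livers lay below every young liver, and the log2 fold change was -0.88 ± 0.38 (adjusted p = 0.0963, edgeR). The median over the 10 members was 1.15, the same with Gzmk set to the 9.17-fold ratio, against 0.06 over all genes.

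Old mApple vehicle livers against young mApple vehicle livers, second batch, gave 1 call among the members, Cd8a, against 0.757% of all 18106 genes called higher and 0.944% called in either direction. Cd8a was at 0.603, 1.81, 3.20 and 1.77 CPM in the 4 old livers, against a lowest of 0.0309, a median of 0.201 and a highest of 0.696 CPM in the 6 young livers. Of the old livers, 3 lay above every young liver, and 23 of 24 pairs were higher in the old liver. The log2 fold change was 2.87 ± 0.59 (adjusted p = 0.0345, edgeR). The call was lost in 8 of the 10 runs that left out 1 library each (1130, 1131, 1132, 1133, 1134, 1136, 1137 or 1138), with an adjusted p of up to 0.0839.

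Of the members not called in that comparison, Cd3d was at 1.76 ± 0.56, Cd3g at 1.66 ± 0.59, Nkg7 at 1.52 ± 0.51 and Cd4 at -0.75 ± 0.30, with adjusted p-values of 0.148, 0.19, 0.165 and 0.232 (edgeR). Without young library 1129, whose Ptprc level of 21.2 CPM was the highest of the young livers, Cd3d (2.25, adjusted p = 0.039) and Nkg7 (1.91, adjusted p = 0.0463, edgeR) were also called. Gzmk was at 2 or fewer counts in 3 of the 4 old livers and at 2.5 counts in all young livers together, so no fold is given. The median over the other 9 members was 1.23, against 0.02 over all genes. Whether the age difference itself differed between the Myc ruxolitinib and the mApple vehicle livers was tested as an interaction. No member was called for it, against 0.141% of 19163 genes in either direction (0.0731% positive and 0.0678% negative), and none had an unadjusted p under 0.05.

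**Figure D2:**
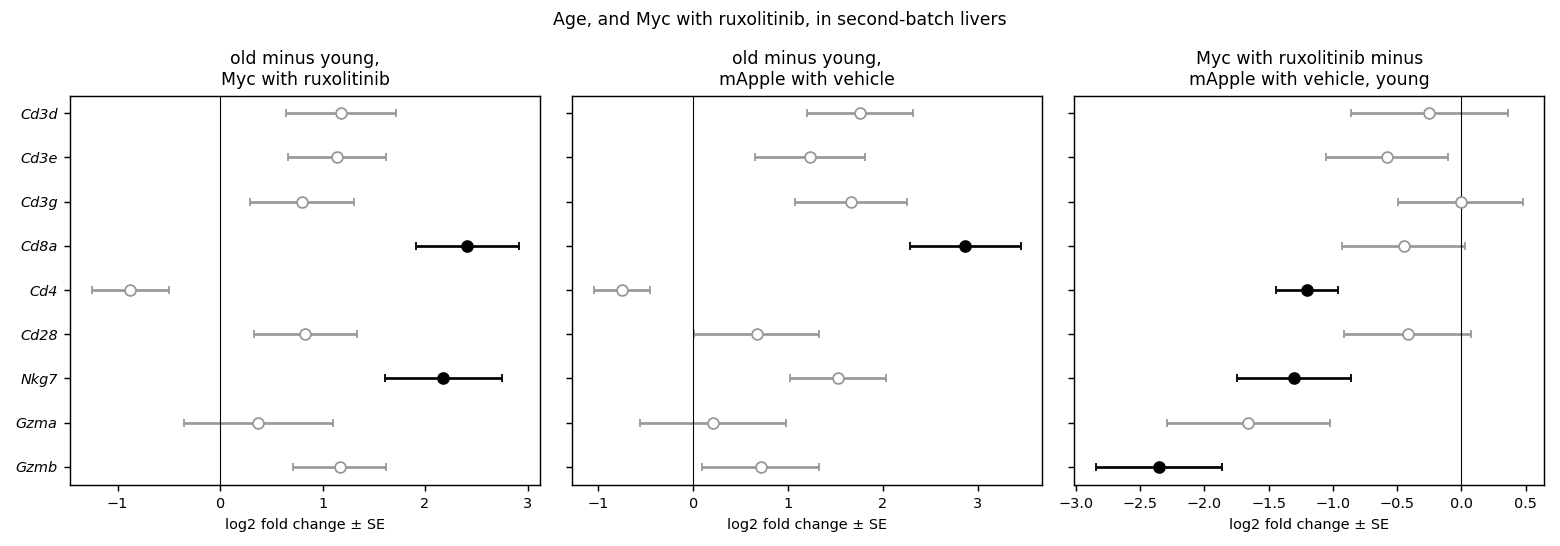
Log2 fold change with its SE for 9 members in second-batch livers. The panels are old minus young with Myc and ruxolitinib, old minus young with mApple and vehicle, and Myc with ruxolitinib minus mApple with vehicle in young livers. Filled points have an adjusted p under 0.05 (edgeR). Gzmk is left out because a group is at or near 0. Cd8a lies at 2.41 and 2.87 in the age panels, and Cd4 lies below 0 in all panels.

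Lists of other lymphocyte genes were tested beside the members. In Myc ruxolitinib livers, 7 of 29 other T lineage genes rose with age and none fell, where 13.2% of all genes were called higher, among them Cd8b1, the other CD8 chain (2.19 ± 0.51, adjusted p = 0.0032), Tcf7, a T cell transcription factor (0.91 ± 0.21, adjusted p = 0.00348), and Themis (1.94 ± 0.51, adjusted p = 0.00739, all edgeR). Of 16 cytotoxic effector genes, 5 rose and none fell, led by the chemokine Ccl5 (2.52 ± 0.45, adjusted p = 0.000295, edgeR). Of 13 activation and exhaustion genes, 4 rose, including the inhibitory receptors Tigit (2.63 ± 0.83) and Lag3 (0.58 ± 0.21) and the regulator Tox (0.97 ± 0.18). Of 20 genes of common gamma chain signalling, 7 rose and 4 fell, where 9.95% of all genes were called lower. None of 11 natural killer cell genes was called. Other leukocyte lists held calls too: 7 of 9 B cell and plasma cell genes, 4 of 7 neutrophil genes, 3 of 8 Kupffer cell genes and 3 of 9 monocyte and dendritic cell genes rose. Whether each of these genes, Sdc1 among them, came from the cells its list names was not tested. Of 8 pan-leukocyte genes, Coro1a (1.07 ± 0.24, adjusted p = 0.0028) and Cd52 (0.90 ± 0.27, adjusted p = 0.0189) rose, and Ptprc was not called (0.36 ± 0.22, adjusted p = 0.244, all edgeR). In mApple vehicle livers, none of the 29 T lineage genes and 1 of the 16 cytotoxic genes (Ccl5, 2.18 ± 0.47, adjusted p = 0.0425, edgeR) rose, where 0.757% of all genes were called higher. In the same livers 1 of 20 common gamma chain genes rose (Il21r, 2.12 ± 0.39, adjusted p = 0.0225, edgeR), and none of 11 natural killer cell genes was called. Of other leukocyte genes there, 3 of 7 neutrophil genes rose (S100a8 at 2.66 ± 0.45, S100a9 at 2.25 ± 0.39 and Csf3r at 1.53 ± 0.29), as did Coro1a (1.66 ± 0.21), the plasma cell gene Jchain (2.78 ± 0.31) and the monocyte gene Ccr2 (1.77 ± 0.28). The part of other leukocytes in the members' differences was not tested.

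Young livers compare Myc with ruxolitinib against mApple with vehicle, so vector and drug change together and cannot be told apart. These livers are the same young livers that the age comparisons use. Cd4, Nkg7 and Gzmb fell and no member rose: 3 of 10 members were called lower, against 8.95% of all 18200 genes called lower, 9.36% called higher and 18.3% in either direction. Cd4 was at 0.651, 1.24 and 1.73 CPM (lowest, median, highest) in Myc ruxolitinib livers, against 1.72, 2.55 and 4.36 CPM in mApple vehicle livers. Only 2 of 60 pairs were higher in the Myc ruxolitinib liver, and the log2 fold change was -1.20 ± 0.24 (adjusted p = 0.00118, edgeR). Between second-batch livers treated alike, Cd4 varied little with Cd3e (Pearson r of 0.09). Whether the fall of Cd4 reflects T cells was not tested.

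Gzmb was at 0, 0.0784 and 0.164 CPM in young Myc ruxolitinib livers, against 0.0639, 0.492 and 1.35 CPM in young mApple vehicle livers. All 10 Myc ruxolitinib livers lay below 5 of the 6 mApple vehicle livers, and the log2 fold change was -2.35 ± 0.49 (adjusted p = 0.00165, edgeR). Nkg7 was at 0, 0.179 and 0.316 CPM in Myc ruxolitinib livers, against 0.124, 0.351 and 0.942 CPM in mApple vehicle livers, a log2 fold change of -1.30 ± 0.44 (adjusted p = 0.0445, edgeR). The calls of Cd4 and Gzmb held in all 16 runs that left out 1 library, while that of Nkg7 was lost in 11 of them, with an adjusted p of up to 0.153 without 1129. With the low-count filter, Gzmb and Nkg7 did not stay in the fit. In 1 fit of all 58 libraries, Gzmb was called (adjusted p = 0.035), while Cd4 (-1.20 ± 0.52, adjusted p = 0.141) and Nkg7 (-1.33 ± 0.77, adjusted p = 0.324, all edgeR) were not. By limma voom Nkg7 was not called (-0.93 ± 0.45, adjusted p = 0.155).

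Gzma was at -1.66 ± 0.63 and was not called (adjusted p = 0.0752, edgeR). The CD3 genes and Cd8a were between -0.58 and -0.0057, and none was called. Gzmk had no count in the Myc ruxolitinib livers and 2.5 in the mApple vehicle livers, all in 1129. The median over the 9 members other than Gzmk was -0.58, against -0.0017 over all genes.

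Among the other lymphocyte genes in young livers, 4 of 29 T lineage genes fell and none rose, where 8.95% of all genes were called lower, including Tcf7 (-0.88 ± 0.16, adjusted p = 0.000339) and S1pr1 (-0.46 ± 0.08, adjusted p = 0.000184, both edgeR). S1pr1 is also expressed by endothelial cells. Of 5 endothelial genes, Clec4g fell (-0.30 ± 0.10) and Lyve1 rose (0.56 ± 0.17), and the part of these cells in the S1pr1 difference was not tested. Of 16 cytotoxic effector genes 3 fell, including Klrk1, the receptor NKG2D (-1.14 ± 0.34, adjusted p = 0.0202, edgeR). Of 20 genes of common gamma chain signalling, 5 fell and none rose. They include the feedback inhibitors of cytokine signals Socs2 (-4.07 ± 0.38) and Cish (-3.64 ± 0.57) and the receptor chain Il2rb (-1.03 ± 0.28, adjusted p = 0.0136, edgeR). Which cells of the liver these falls came from was not tested. Genes of other lists fell too: 4 of 5 erythroid genes (Alas2 at -0.95 ± 0.12, Hba-a1 and Hba-a2 at -0.88 ± 0.26 and Hbb-bs at -0.78 ± 0.23) and, from the B cell and plasma cell list, Jchain (-1.02 ± 0.27) and Sdc1 (-0.58 ± 0.19). Their part in the members' differences was not tested. Cd79a of that list was not called (-0.58 ± 0.36, adjusted p = 0.306, edgeR), and whether the fall of Sdc1 came from plasma cells was not tested. Ptprc was not called (-0.11 ± 0.23, adjusted p = 0.792, edgeR). Alb fell by 0.84 on the log2 scale (adjusted p = 0.000373, edgeR).

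The next question is what ruxolitinib did to these genes in old livers. No member was called by edgeR in Myc livers (against 0.519% of 19284 genes in either direction), in mApple livers (0.265% of 18834) or in both vectors together (1.73% of 19659, with 0.61% higher and 1.12% lower). Without adjustment, 1, 1 and 2 members had a p under 0.05 in these 3 comparisons. By limma voom on the same libraries, 1 member was called in Myc livers and 2 with both vectors together. The share of all genes called by limma voom is not given here. Of the 20 genes listed for common gamma chain signalling, 3 genes of cytokine feedback fell with both vectors together. Socs2 was at -2.26 ± 0.26 (adjusted p = 1.32e-07), Cish at -2.19 ± 0.37 (adjusted p = 0.000229) and Socs1 at -0.91 ± 0.25 (adjusted p = 0.0398, all edgeR). Which cells of the whole liver this fall came from, and whether lymphocytes had a part in it, was not tested.

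Values differed between the batches for Gzmb, and that difference itself was not tested. In the second batch, Gzmb in old Myc livers was at 0, 0.174 and 0.405 CPM (lowest, median, highest, n = 10) with ruxolitinib, against 0.69, 1.11, 1.22, 0.997 and 0.621 CPM with vehicle. These ranges do not overlap, and the share of all genes with separate ranges was not computed. In old mApple livers of that batch, Gzmb was at 0.235, 0.551, 0, 0 and 0.117 CPM with ruxolitinib, against 0.517, 0.241, 2.00 and 0.667 CPM with vehicle, and 2 of 20 pairs were higher in the ruxolitinib liver.

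In the first batch, Gzmb in old Myc livers was at 2.00, 6.996, 0.616 and 0.233 CPM with ruxolitinib (libraries 860, 861, 868 and 869). The vehicle livers had 0.255, 1.49 and 2.01 CPM (lowest, median, highest, n = 6). The highest value came from 861 and the groups overlap. In first-batch mApple livers, Gzmb was at 0.528, 1.78, 0.265 and 0.625 CPM with ruxolitinib, against 2.66, 0.573, 2.07 and 0.988 CPM with vehicle.

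With both vectors together, the log2 fold change of Gzmb was -1.02 ± 0.39 over both batches (adjusted p = 0.165). It was -2.12 ± 0.41 in the second batch alone (adjusted p = 0.00815, where 1.03% of genes were called) and 0.10 ± 0.55 in the first batch alone (adjusted p = 0.928, all edgeR). Without libraries 860, 861, 864 and 865 it was -1.66 ± 0.33 (adjusted p = 0.00231, where 1.31% of genes were called, edgeR). Leaving out 861 alone gave -1.45 ± 0.32 (adjusted p = 0.00858, edgeR), the only call of Gzmb in 42 runs that left out 1 library. The 4 libraries are all first-batch ruxolitinib livers and were chosen with earlier results of these data known. The fit without them is therefore no independent support. Cd3e (-0.36) and Nkg7 (-0.46) were also lower in that fit than over all old libraries (0.10 and 0.14).

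By vector, Gzmb was at -0.65 ± 0.49 in Myc livers (adjusted p = 0.56), -2.06 ± 0.39 in their second batch (adjusted p = 0.0937, where 0.0423% of genes were called) and -1.93 ± 0.34 without the 4 libraries (adjusted p = 0.00585, where 0.543% of genes were called, all edgeR). In mApple livers it was at -1.59 ± 0.56 (adjusted p = 0.457), -2.24 ± 0.86 in the second batch (adjusted p = 0.534, where 0.0437% of genes were called) and -1.05 ± 0.59 in the first (adjusted p = 0.442, where 0.0498% of genes were called, all edgeR). The interaction of drug and vector called no member and none of 19659 genes (0% in either direction), and no member had an unadjusted p under 0.05. The Ptprc median was also lower with ruxolitinib in the second batch: its lowest, median and highest levels in old Myc livers were 5.47, 10.8 and 21.8 CPM with ruxolitinib and 12.4, 18.5 and 24.3 CPM with vehicle. The summed level of 11 other natural killer cell genes was 0.71 to 2.71 CPM with ruxolitinib and 2.05 to 3.06 CPM with vehicle in the same livers. The part of leukocyte number in the Gzmb difference was not tested.

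Gzma was not called in either batch. Its log2 fold change with both vectors together was -0.63 ± 0.46 (adjusted p = 0.511), -1.95 ± 0.56 in the second batch (adjusted p = 0.0927) and 0.82 ± 0.59 in the first (adjusted p = 0.375, all edgeR). In second-batch old Myc livers, Gzma was at 0, 0.0387 and 0.793 CPM with ruxolitinib, against 1.38, 1.30, 0.207, 0.649 and 0.404 CPM with vehicle, and 5 of 50 pairs were higher in the ruxolitinib liver. Gzmk was at 0.47 ± 0.49 over both batches and 0.09 ± 0.71 in the second batch, against -0.29 ± 0.54 without the 4 libraries (edgeR) and -0.59 ± 0.46 by limma voom, and was not called in any of them. Its second-batch median was 0.0514 CPM with ruxolitinib against 0.233 CPM with vehicle in Myc livers, and 0.0584 CPM against 0.115 CPM in mApple livers. Libraries 1156 and 1140 held its highest ruxolitinib levels there, 0.901 and 1.40 CPM.

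Cd28 had values of the other sign. With both vectors together it was at 1.13 ± 0.38 (adjusted p = 0.117), 1.89 ± 0.50 in the first batch (adjusted p = 0.022, where 10.8% of genes were called), 0.39 ± 0.48 in the second and 0.38 ± 0.36 without the 4 libraries (all edgeR). In first-batch mApple livers Cd28 was at 1.36, 1.23, 3.10 and 1.75 CPM with ruxolitinib, against 0.885, 0.153, 0.837 and 0.823 CPM with vehicle, and these ranges do not overlap. In second-batch mApple livers 10 of 20 pairs were higher in the ruxolitinib liver. Among the members, by vector and batch, only this set and Gzmb in second-batch Myc livers had separate ranges. The share of all genes with separate ranges was not computed. Cd4 in first-batch Myc livers was at 21.9, 15.5, 11.1 and 3.42 CPM with ruxolitinib, against a highest vehicle level of 4.25 CPM. Its log2 fold change there was 2.40 ± 0.45 (adjusted p = 0.018, where 5.53% of genes were called, edgeR), and in the second batch -0.87 ± 0.47 (adjusted p = 0.619, edgeR). In these same first-batch libraries the summed level of 8 Kupffer cell genes ran from 382 to 4213 CPM with ruxolitinib, against 198 to 538 CPM with vehicle. Clec4f, the defining Kupffer cell gene, was above 0 in all of them, and its part in the Cd4 level was not tested.

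**Figure D3:**
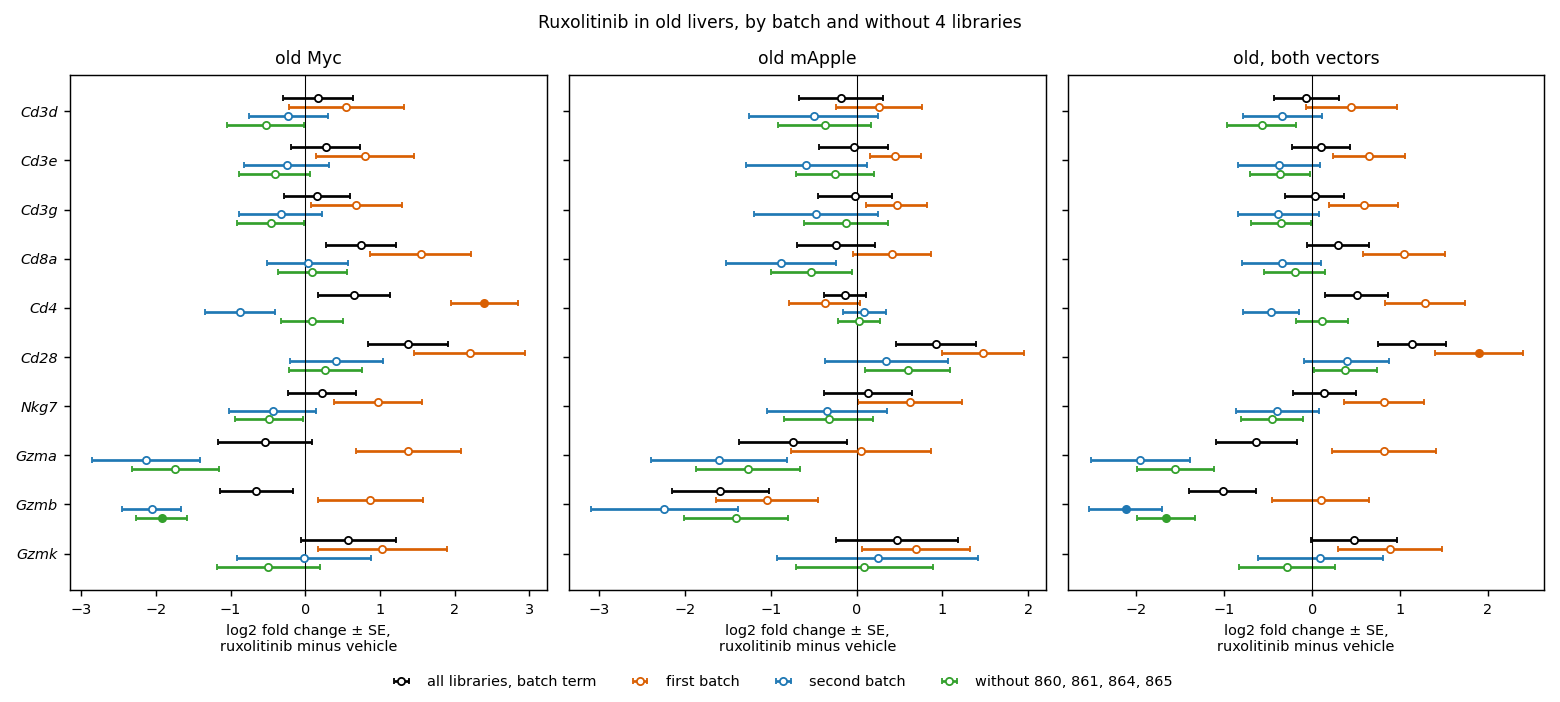
Log2 fold change with its SE, ruxolitinib minus vehicle, in old livers. In each row, from top to bottom, points are the fit of all libraries with a batch term, the first batch, the second batch, and all libraries but 860, 861, 864 and 865. Filled points have an adjusted p under 0.05 (edgeR). For Gzmb with both vectors the second batch lies at -2.12 and the first at 0.10.

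**Figure D4:**
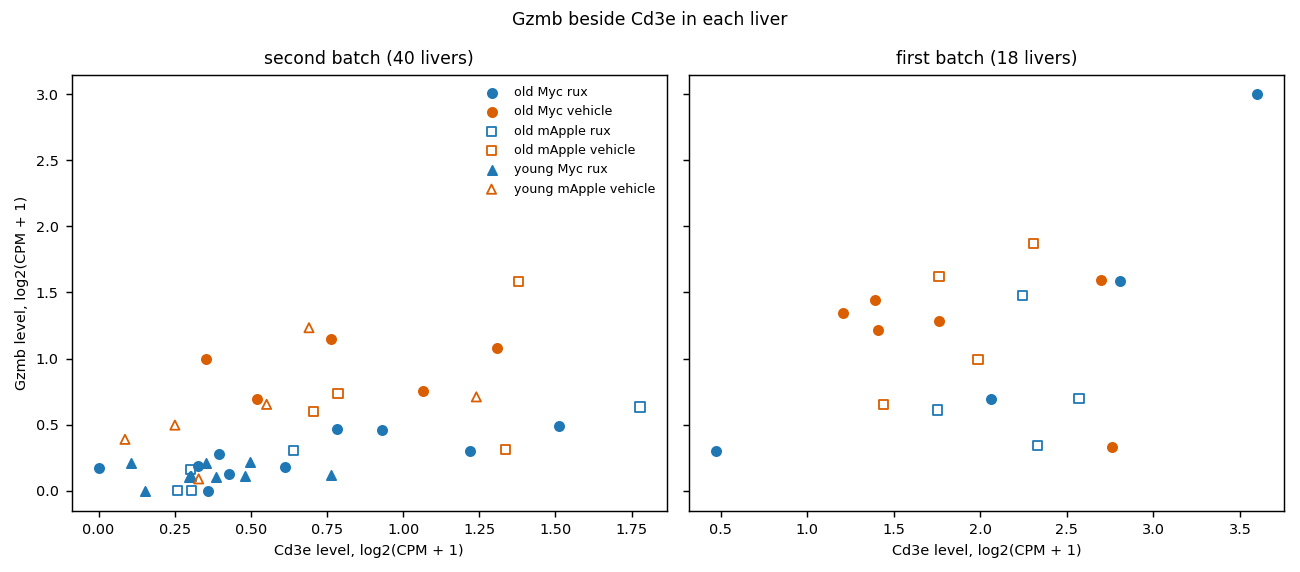
Gzmb against Cd3e in each liver, both as log2(CPM + 1), with the second batch left and the first right. Blue is ruxolitinib and orange vehicle, filled symbols are Myc and open ones mApple, and triangles are young livers. In the second batch the old Myc ruxolitinib livers lie at 0.405 CPM Gzmb or less and the old Myc vehicle livers at 0.621 CPM or more, over overlapping Cd3e levels.

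The Cd3e levels of the second batch stand beside those of Gzmb. In old Myc livers Cd3e was at 0, 0.437 and 1.85 CPM with ruxolitinib, against 0.278, 0.698 and 1.48 CPM with vehicle, and these ranges overlap, with 20 of 50 pairs higher in the ruxolitinib liver. In old mApple livers Cd3e was at 0.558, 2.43, 0.196, 0.235 and 0.234 CPM with ruxolitinib, against 0.632, 1.52, 1.60 and 0.725 CPM with vehicle, with 4 of 20 pairs higher. Its log2 fold change with both vectors together was 0.10 over both batches and -0.38 in the second batch, neither called (edgeR).

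The effect of Myc was compared within old livers. No member was called with vehicle, against 12% of 18769 genes in either direction (7.4% higher and 4.56% lower). None was called with ruxolitinib, against 9.31% of 19342 genes (6% higher and 3.31% lower). With vehicle the members ran from -0.65 (Cd8a, adjusted p = 0.263) to 0.35 (Cd3d, adjusted p = 0.709), with a median of -0.07. With ruxolitinib they ran from -0.04 (Cd3g) to 1.01 (Gzmb, adjusted p = 0.32), with a median of 0.11 (edgeR). No member had an unadjusted p under 0.05 in either comparison. All 6 cell division genes listed beside them rose in both, among them Cdk1 with vehicle (2.24 ± 0.37) and with ruxolitinib (2.12 ± 0.32). With vehicle, the T lineage genes Tcf7 (-0.58 ± 0.18, adjusted p = 0.033) and S1pr1 (-0.45 ± 0.12, adjusted p = 0.013, edgeR) fell, 2 of 29, where 4.56% of all genes were called lower. Of 5 endothelial genes 4 fell in the same livers (Kdr at -0.53 ± 0.11, Clec4g at -0.45 ± 0.14, Stab2 at -0.41 ± 0.12 and Pecam1 at -0.37 ± 0.11), and S1pr1 is also expressed by endothelial cells. The part of endothelial cells in the S1pr1 difference was not tested. Without libraries 855 and 870, whose Myc levels go against their labels, all 10 members were negative for Myc with vehicle. Cd8a was then called, at -0.99 ± 0.32 (adjusted p = 0.0469, edgeR, where 2278 of 18700 genes were called). That pair was left out after the values were seen.

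Across the 58 libraries most members varied with Cd3e. On the log2(CPM + 1) scale, less the mean of each group and batch, the Pearson r with Cd3e was 0.86 for Cd8a and Cd3g, 0.85 for Cd28, 0.81 for Cd3d and Gzmk, 0.80 for Nkg7, 0.62 for Gzma, and 0.52 for both Cd4 and Gzmb. Spearman's rho was lower for Cd4 (0.36) and Gzmb (0.44) than for Cd8a (0.80) and Nkg7 (0.80). Batch means were subtracted, but these points can still share library depth and the other leukocytes. Ptprc had an r of 0.76 with Cd3e, so the values are descriptions. Among the 15 genes correlated with Cd3e, the adjusted permutation p of r was 0.00012 for Cd4 and 0.00015 for Gzmb, and 1.67e-05 for each other member, the smallest the draws allow. Without the 2 libraries farthest from the Cd3e median, r was 0.33 for Cd4 and 0.28 for Gzmb, so these relations rest in part on those samples, while it was 0.47 for Gzma, 0.75 for Nkg7 and Cd3d, 0.76 for Gzmk, 0.78 for Cd28, 0.79 for Cd8a and 0.82 for Cd3g. Within the second batch r was 0.09 for Cd4, 0.50 for Gzmb, 0.77 for Cd8a and 0.82 for Nkg7.

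Genes whose pattern was among the most like that of Cd3e, by Pearson r on the same centred scale over the 58 libraries among 13670 genes with a mean of at least 0.5 CPM, were Ms4a4b (0.90), Rasal3 (0.88), Ptpn22 (0.88), Grap2 (0.85) and Il21r (0.85). The genes most like Nkg7 were Ccl5 (0.87), Cyba (0.81), Arhgap9 (0.80), Sh2d2a (0.79), Ppfia4 (0.78) and Runx1 (0.78). Ncr1, a defining natural killer cell gene, had an r of 0.25 with Cd3e and was not called in any comparison (its adjusted p was 0.0549 in young livers, log2 fold change -1.83 ± 0.65, edgeR).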

How the data were processed

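The authors deposited estimated counts (an estimated count of exon reads for each gene, in steps of 0.5), with no normalization, per the file headers. The submitters' processing notes name STAR, HOMER and mm10, and versions and strand setting are not given in the sources used here. Counts were rounded to whole numbers and all genes with a count were fitted, with no low-count filter, by edgeR 4.0.16 (quasi-likelihood test, TMM scaling, limma 3.58.1, R 4.3.3). A batch term was added where both batches were present, and the age and young comparisons used the second batch only. P-values were adjusted over all genes fitted (Benjamini-Hochberg, threshold 0.05), and the SE was taken as the absolute log2 fold change divided by the root of F. The edgeR test was checked on simulated counts, with changes placed only in genes with a mean of at least 10 counts. That check does not cover genes counted more thinly, as several members were in young livers. Alternatives were DESeq2 1.42.0, limma voom with quality weights, other scaling, a filter with a minimum count of 10, 1 fit of all 58 libraries, no batch term, single batches, and leaving out libraries. Leaving out 855 and 870 together was added after seeing the data. Levels use unrounded counts. The members, lists and the 4 libraries left out were chosen with earlier results of these data known. All 10 members are named, with up to 4 genes per list among those called, the 6 genes most like Cd3e and Nkg7, and 6 cell markers. Some genes that this rule names are not reported here. No source says which livers shared a cage or an extraction, so p-values measure the spread between these samples. No pair of libraries of 1 group and batch agreed within sampling noise.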

Additional observations from a re-analysis of the deposited data

Results flagged for a closer look

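Of 99 sets of livers from 1 group and batch, 1 per gene, 17 held a liver whose level lay far from the others by Dixon's test at 95%. For normal values in independent sets, chance flags about 1 in 20. These levels rest on few reads and the genes vary together, so that share is no yardstick here. Library 1140 (old mApple ruxolitinib, second batch) stood above the other 4 livers in 5 genes, with Cd3e at 2.43, Cd3g at 2.30, Cd8a at 3.004, Nkg7 at 3.10 and Gzmk at 1.40 CPM. Library 1129 (young mApple vehicle) stood above the other 5 in Cd3d (0.532 CPM), Gzma (1.43 CPM) and Gzmk (0.205 CPM). Library 1156 (old Myc ruxolitinib, second batch) stood above the other 9 in Cd3g (1.91 CPM) and Gzmk (0.901 CPM).

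Single genes were far from the rest in 7 other livers. Cd8a was high in 865 of old mApple ruxolitinib, first batch (5.88 CPM), and Gzma in 870 of old Myc vehicle, first batch (1.35 CPM). Cd28 was high in 1145 of old Myc vehicle (0.674 CPM) and in 1134 of young mApple vehicle (0.818 CPM), and low in 855 of old mApple vehicle, first batch (0.153 CPM). Gzmk was high in 1137 of old mApple vehicle, second batch (0.767 CPM). Gzmb was at 0 CPM in 1125 of young Myc ruxolitinib, just below the others.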

How the results depend on the processing

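No paired analysis was possible because library numbers are not shared between groups. Counts of members called differed from those reported as follows. For ruxolitinib in old Myc livers the count was 1 by limma voom, 1 in the first batch alone and 1 without 860, 861, 864 and 865. For ruxolitinib in old livers of both vectors the count was 2 by limma voom, 1 in the second batch alone, 1 in the first batch alone and 1 without 860, 861, 864 and 865. For Myc in old vehicle livers the count was 1 without 855 and 870, a choice made after seeing the data. For age in mApple vehicle livers the count was 3 by limma voom and 0 with all 58 libraries in 1 fit. For age in Myc ruxolitinib livers the count was 0 with the low-count filter and 5 with all 58 libraries in 1 fit. For Myc with ruxolitinib in young livers the count was 1 with the low-count filter and 1 with all 58 libraries in 1 fit. Cd3d (-0.34), Cd3e (-0.70), Cd3g (-0.56), Cd8a (-0.30), Nkg7 (-0.57) and Gzmk (-0.76) were of the other sign for ruxolitinib in old Myc livers by limma voom. Cd3d (-0.10) and Cd3g (-0.057) were of the other sign for ruxolitinib in old Myc livers with no batch term. Cd3d (-0.23), Cd3e (-0.25), Cd3g (-0.33), Cd4 (-0.87), Nkg7 (-0.44) and Gzmk (-0.018) were of the other sign for ruxolitinib in old Myc livers in the second batch alone. Cd3d (-0.53), Cd3e (-0.41), Cd3g (-0.46), Nkg7 (-0.49) and Gzmk (-0.49) were of the other sign for ruxolitinib in old Myc livers without 860, 861, 864 and 865. Gzma (1.38) and Gzmb (0.87) were of the other sign for ruxolitinib in old Myc livers in the first batch alone. Cd3d (0.26), Cd3e (0.45), Cd3g (0.47), Cd8a (0.41) and Gzma (0.046) were of the other sign for ruxolitinib in old mApple livers in the first batch alone. Cd3e (0.097) and Cd3g (0.036) were of the other sign for ruxolitinib in old mApple livers with no batch term. Cd3g (0.26), Nkg7 (-0.30) and Gzmk (-0.43) were of the other sign for ruxolitinib in old mApple livers by limma voom. Cd4 (0.082) was of the other sign for ruxolitinib in old mApple livers with all 58 libraries in 1 fit. Cd4 (0.087) and Nkg7 (-0.34) were of the other sign for ruxolitinib in old mApple livers in the second batch alone. Cd4 (0.024) and Nkg7 (-0.33) were of the other sign for ruxolitinib in old mApple livers without 860, 861, 864 and 865. Cd3d (0.44), Gzma (0.82) and Gzmb (0.097) were of the other sign for ruxolitinib in old livers of both vectors in the first batch alone. Cd3d (0.10) was of the other sign for ruxolitinib in old livers of both vectors without 855 and 870, a choice made after seeing the data. Cd3e (-0.46), Cd3g (-0.20), Cd8a (-0.29), Cd4 (-0.13), Nkg7 (-0.43) and Gzmk (-0.59) were of the other sign for ruxolitinib in old livers of both vectors by limma voom. Cd3e (-0.38), Cd3g (-0.38), Cd8a (-0.35), Cd4 (-0.47) and Nkg7 (-0.40) were of the other sign for ruxolitinib in old livers of both vectors in the second batch alone. Cd3e (-0.36), Cd3g (-0.36), Cd8a (-0.20), Nkg7 (-0.46) and Gzmk (-0.29) were of the other sign for ruxolitinib in old livers of both vectors without 860, 861, 864 and 865. Cd3g (-0.040) was of the other sign for ruxolitinib in old livers of both vectors with no batch term. Cd3d (-0.61), Cd3e (-0.17), Cd3g (-0.42), Cd4 (-0.26), Cd28 (-0.43), Nkg7 (-0.30), Gzma (-0.32) and Gzmb (-0.35) were of the other sign for the interaction of drug and vector without 860, 861, 864 and 865. Cd3e (-0.24), Cd3g (-0.62), Cd4 (-0.26), Cd28 (-0.63), Nkg7 (-0.25) and Gzma (-0.99) were of the other sign for the interaction of drug and vector by limma voom. Cd3e (-0.15), Cd3g (-0.15) and Nkg7 (-0.13) were of the other sign for the interaction of drug and vector with no batch term. Cd4 (-0.97), Nkg7 (-0.10) and Gzma (-0.53) were of the other sign for the interaction of drug and vector in the second batch alone. Gzmk (0.35) was of the other sign for the interaction of drug and vector in the first batch alone. Gzmk (0.38) was of the other sign for the interaction of drug and vector without 855 and 870, a choice made after seeing the data. Cd3d (-0.081), Cd3g (0.067), Gzmb (0.24) and Gzmk (-0.31) were of the other sign for Myc in old vehicle livers by limma voom. Cd3d (-0.62), Nkg7 (-0.23), Gzmb (0.11) and Gzmk (-0.42) were of the other sign for Myc in old vehicle livers in the second batch alone. Cd3d (-0.22), Nkg7 (-0.31), Gzma (-0.083) and Gzmk (-0.39) were of the other sign for Myc in old vehicle livers without 855 and 870, a choice made after seeing the data. Cd3e (0.038) and Cd3g (0.014) were of the other sign for Myc in old vehicle livers with no batch term. Cd3e (0.14), Cd3g (0.33), Cd4 (0.047), Cd28 (0.12) and Gzma (-0.14) were of the other sign for Myc in old vehicle livers in the first batch alone. Cd3d (-0.37), Cd3e (-0.13), Cd8a (-0.039), Cd4 (-1.42), Cd28 (-0.64) and Nkg7 (-0.33) were of the other sign for Myc in old ruxolitinib livers in the second batch alone. Cd3d (-0.26), Cd3e (-0.29), Cd8a (-0.070), Cd4 (-0.73), Cd28 (-0.68), Nkg7 (-0.24) and Gzmb (-0.20) were of the other sign for Myc in old ruxolitinib livers without 860, 861, 864 and 865. Cd3e (-0.12), Cd28 (-0.40), Gzma (-0.098) and Gzmk (0.020) were of the other sign for Myc in old ruxolitinib livers by limma voom. Cd3e (-0.085) was of the other sign for Myc in old ruxolitinib livers with no batch term. Cd3g (0.50) and Gzmk (0.76) were of the other sign for Myc in old ruxolitinib livers in the first batch alone. Cd4 (-0.17) and Cd28 (-0.066) were of the other sign for Myc in old ruxolitinib livers by DESeq2. Cd28 (-0.047) and Gzma (-0.28) were of the other sign for age in mApple vehicle livers with all 58 libraries in 1 fit. Cd4 (0.35) was of the other sign for age in Myc ruxolitinib livers with all 58 libraries in 1 fit. Gzma (-0.56) was of the other sign for age in Myc ruxolitinib livers by limma voom. Cd3d (0.52), Cd3e (0.64), Cd8a (0.42) and Cd4 (1.71) were of the other sign for the interaction of age and treatment with all 58 libraries in 1 fit. Cd28 (-0.24), Gzma (-0.79), Gzmb (-0.060) and Gzmk (-0.77) were of the other sign for the interaction of age and treatment by limma voom. Cd3e (0.36), Cd3g (0.20), Cd8a (0.34) and Gzmk (0.048) were of the other sign for Myc with ruxolitinib in young livers by limma voom. R with Cd3e was 0.089 for Cd4, 0.28 for Clec4f, -0.18 for S100a8 and -0.29 for Alb in the second batch alone. R with Cd3e was 0.28 for Gzmb, 0.15 for Clec4f and -0.24 for Alb without 861 and 869. R with Cd3e was 0.21 for Clec4f without 860, 861, 864 and 865. Cd3d (-0.30 to 0.16), Cd3e (-0.083 to 0.18), Cd3g (-0.16 to 0.18) and Nkg7 (-0.054 to 0.26) had a sign or call that changed in ruxolitinib in old livers of both vectors when each of 42 libraries was left out in turn. In ruxolitinib in old livers of both vectors 0 to 1 members were called with 1 library left out. Gzma (-0.42 to 0.96) and Gzmb (-0.086 to 1.17) had a sign or call that changed in age in mApple vehicle livers when each of 10 libraries was left out in turn. In age in mApple vehicle livers 0 to 3 members were called with 1 library left out. Cd3d (-0.17 to 0.45), Cd3e (-0.090 to 0.48), Cd3g (-0.19 to 0.32), Nkg7 (-0.14 to 0.42) and Gzmk (-0.11 to 0.78) had a sign or call that changed in ruxolitinib in old Myc livers when each of 25 libraries was left out in turn. Cd3d (-0.51 to 0.056), Cd3e (-0.43 to 0.12), Cd3g (-0.36 to 0.28), Cd8a (-0.60 to 0.018), Nkg7 (-0.31 to 0.37) and Gzmk (-0.26 to 0.98) had a sign or call that changed in ruxolitinib in old mApple livers when each of 17 libraries was left out in turn. Cd3d (-0.20 to 0.69), Cd3e (-0.072 to 0.71), Cd3g (-0.25 to 0.53), Cd28 (-0.26 to 0.69), Nkg7 (-0.30 to 0.56), Gzma (-0.42 to 0.85) and Gzmk (-0.69 to 0.82) had a sign or call that changed in the interaction of drug and vector when each of 42 libraries was left out in turn. Cd3d (-0.073 to 0.65), Cd3e (-0.27 to 0.012), Cd3g (-0.29 to 0.19), Nkg7 (-0.17 to 0.29), Gzmb (-0.18 to 0.22) and Gzmk (-0.22 to 0.57) had a sign or call that changed in Myc in old vehicle livers when each of 19 libraries was left out in turn. Cd3e (-0.17 to 0.76), Cd3g (-0.33 to 0.50), Cd8a (-0.032 to 0.87), Cd4 (-0.25 to 0.22), Cd28 (-0.51 to 0.45), Nkg7 (-0.22 to 0.76) and Gzmk (-0.62 to 1.11) had a sign or call that changed in Myc in old ruxolitinib livers when each of 23 libraries was left out in turn. Gzma (-0.30 to 0.54) had a sign or call that changed in age in Myc ruxolitinib livers when each of 20 libraries was left out in turn. Cd3e (-0.67 to 0.16), Cd4 (-0.37 to 0.058), Cd28 (-0.37 to 0.63), Gzma (-0.59 to 0.80) and Gzmk (-0.42 to 3.02) had a sign or call that changed in the interaction of age and treatment when each of 30 libraries was left out in turn. Cd3d (-0.52 to 0.25), Cd3g (-0.20 to 0.15), Cd8a (-0.73 to 0.060) and Cd28 (-0.61 to 0.10) had a sign or call that changed in Myc with ruxolitinib in young livers when each of 16 libraries was left out in turn. The cause of these changes was not tested. With the low-count filter fewer genes were fitted, and 1 member remained in the fit for age in Myc ruxolitinib livers and for young livers.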
